A study of Homo sapiens with 4 samples.

Results

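The transcripts of 9 large chromatin enzymes were followed for the number and position of their m6A peaks and for their input levels in uveal melanoma cells exposed to meclofenamic acid. The genes are KMT2A, KMT2B, KMT2C, KMT2D, SETD1A, SETD1B, SETD2, CREBBP and EP300. They were taken by symbol, and all 9 of the 9 symbols were found among the 14416 genes of the input table and in both peak lists. OMM 2.3 is an established human uveal melanoma cell line, labelled wild type (wt). The cells received meclofenamic acid (MA) or DMSO as the control (NC), each for 24 h. RNA modified with N6-methyladenosine (m6A) was pulled down with an antibody and sequenced (RIP) beside the unselected fragments (input), giving 1 RIP and 1 input library per condition. With 1 library per group there was no replicate, so no test between conditions was made, and each difference below describes these 4 libraries.

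Histone H3 lysine 4 (H3K4) is methylated in mammals by the KMT2 and SETD1 enzymes. SETD1A and SETD1B place the trimethyl mark at active promoters, KMT2A and KMT2B act at selected promoters such as those of HOX genes, and KMT2C and KMT2D place the monomethyl mark at enhancers. SETD2 trimethylates H3 lysine 36 in the bodies of transcribed genes, and CREBBP (CBP) and EP300 (p300) are paralogous acetyltransferases that mark active enhancers. In messenger RNA, m6A is known to lie mostly around stop codons, in 3' UTRs and in long internal exons. Meclofenamic acid is an anti-inflammatory drug that also inhibits the m6A demethylase FTO.

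The cell line was checked against markers of its lineage. All 9 melanocyte lineage markers were present, between 21.5 and 4027 FPKM in the NC input, where FPKM counts fragments per transcript length and library total. All 9 had lower values in MA, 5 of them by 2-fold or more (median log2 difference -1.04), with PMEL, a melanosome protein gene, at 4027 FPKM in NC and 1251 in MA. The part of this shift in the input differences described below was not tested. Of 18 markers chosen for epithelial, endothelial, immune and fibroblast cells, the table held 12, and of these only LUM, a matrix proteoglycan gene, passed 1 FPKM, at 4.96 in NC and 12.0 in MA. The input totals behind the FPKM scale were 37041597 in NC and 41630895 in MA. The peak lists held 22067 peaks in 9522 genes for NC and 19929 peaks in 9085 genes for MA.

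Every one of the 9 transcripts carried several peaks in both lists, and most of these peaks were labelled Exon by the authors. The genes held 71 peaks in NC and 69 in MA, from 3 to 15 per gene. The median was 8 peaks per gene in NC and 7 in MA, against 2 in either list over all genes with a peak. All 9 had at least 1 peak in each list, as did 83.3% in NC and 80.0% in MA of the 10564 genes that reached 1 FPKM in either input. All 9 also had 3 or more peaks in each list, where 28.1% of those genes did in NC and 24.7% in MA. At 4 or more peaks there were 7 of the 9 genes in NC (all genes 15.0%) and 9 in MA (12.7%). At 5 or more there were 7 of the 9 in each list, against 7.86% of all genes in NC and 6.56% in MA.

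Since the 9 genes are long, a like-length group of 1049 genes was set beside them, with a recovered transcript length of at least 7 kb and at least 3 FPKM in both inputs. These limits were chosen after the values had been seen, and 8 of the 9 genes belong to the group. Of the like-length genes, 64.8% had 3 or more peaks in NC and 57.8% in MA, with a median of 3 peaks in each list. Their shares were 46.8% in NC and 42.1% in MA at 4 or more peaks, and 31.6% and 25.9% at 5 or more. Peaks covered a median of 15.9% of the transcript in like-length genes with a peak in NC and 15.6% in MA. For the 8 genes other than KMT2A, the covered share ran from 27.9% to 52.7% in NC (median 36.4%) and from 29.1% to 65.9% in MA (median 35.1%). For comparison, the 90th percentile of the like-length genes was 38.1% in NC and 39.2% in MA, and 2 of the 8 genes lay above it in each list, SETD1B and SETD2 in NC and SETD2 and EP300 in MA. KMT2A has no share because its recovered length, 4.86 kb, was less than the 6.81 kb that its own NC peaks covered and can only be a fraction of the true length.

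The number of peaks and the length they covered moved together between the lists in some genes and not in others. Both were higher in MA for KMT2B, CREBBP and EP300 and lower for SETD1A and SETD1B. In KMT2A, KMT2C, KMT2D and SETD2 they went opposite ways, with KMT2D nearly level in length. More peaks were listed in NC for 5 genes (KMT2A, KMT2C, SETD1A, SETD1B and SETD2) and in MA for 4. The NC list is the longer one, and with equal numbers of peaks kept in both lists only KMT2A had more in NC (11 and 9). KMT2C (9 and 11) and SETD1B (6 and 7) then had more in MA, and SETD1A (5 in each) and SETD2 (8 in each) were level. By covered exonic length, 6 genes were longer in MA and 3 (KMT2D, SETD1A and SETD1B) in NC. These lengths were not recomputed with equal numbers of peaks. Summed over the 9 genes, the peaks covered 40.4 kb in NC and 43.2 kb in MA. With peaks less than 200 bp apart joined, a rule added after the data were seen, 54 regions remained in NC and 46 in MA.

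**Figure D1:**
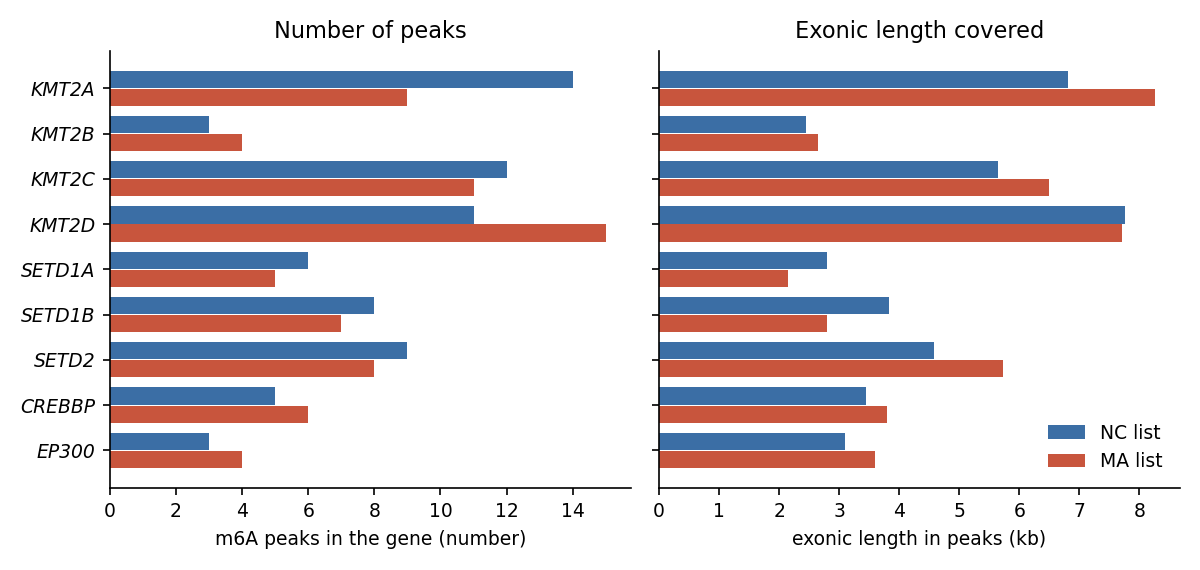
Number of listed m6A peaks (left, bars from 0) and exonic length inside peaks in kb (right, bars from 0) for each gene, with the NC list in blue and the MA list in red. KMT2A had 14 peaks in NC and 9 in MA but covered 6.81 kb in NC and 8.26 kb in MA, while KMT2D had 11 and 15 peaks over 7.76 and 7.71 kb.

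KMT2A, also known as MLL1, is the gene rearranged in a class of acute leukaemias. It had 14 peaks in NC, a number that only 13 of the 9522 genes with a peak reached, KMT2A included, and 9 peaks in MA. Of these, 12 peaks in NC and 7 in MA were labelled Exon by the authors, and the other 2 in each list 3' UTR. The difference in number came largely from 1 long exon at chr11:118502422-118505922 (GRCh38.p13, plus strand). There the MA list gave a single peak of 3501 bp at a fold enrichment of 5.85, the longest of all member peaks. The NC list gave 5 separate peaks over the same stretch, covering 2805 bp, with fold enrichments of 11.0, 2.67, 2.00, 7.00 and 10.7. The stretch was thus listed in pieces with gaps in NC and as a whole in MA. The highest fold enrichment of KMT2A was 13 in NC, at chr11:118471790-118472390, and this region lay inside an MA peak of 1301 bp at 4.57-fold. Joined over both lists, the KMT2A peaks formed 8 regions, and all 8 had a peak in both lists.

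KMT2B (MLL2), the paralogue of KMT2A, had the fewest peaks together with EP300, 3 in NC and 4 in MA. Its first peaks lay at the 5' end, where NC had a 747 bp peak labelled 5' UTR and an 896 bp peak labelled Exon, the latter at chr19:35720689-35721584. MA had 1 peak of 1792 bp over both, chr19:35719843-35721634, at 6.33-fold, the highest of the gene in that list. In NC the highest fold enrichment, 4.67, was that of the 5' UTR peak. The peak found only in MA, chr19:35736936-35737185, covered 151 bp of exon at 1.80-fold, near the lowest values in the list (percentile 8.75). KMT2B had no 3' UTR peak in either list.

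KMT2C, an enhancer H3K4 methyltransferase mutated in many tumours, had 12 peaks in NC and 11 in MA. Its NC peaks included the highest fold enrichment of all member peaks, 17.0 over 301 bp at chr7:152182223-152182523 on the minus strand, at percentile 99.7 of the NC list. An MA peak of 549 bp, chr7:152182124-152183051, covered the same place at 4.50-fold, percentile 77.9 of its own list. Fold enrichments from separate lists are not on a common scale, so this pair is given side by side and not as a change. The longest KMT2C peaks were 949 bp in NC (chr7:152162953-152167220, spanning more than 1 exon, 13-fold) and 1347 bp in MA (chr7:152176625-152177971, 8.30-fold). The NC list alone had 2 KMT2C peaks. One, chr7:152207352-152220645, covered 200 bp of exon at 10.0-fold with a false discovery rate (FDR) of 0.0324, and its label, 5' UTR, stands although a peak labelled Exon lies further 5' in the gene. The other, chr7:152179994-152180727, covered 150 bp at 2.60-fold. The MA list alone had chr7:152136371-152136521 in the 3' UTR, at 2.27-fold. Part of KMT2C is known to have near-identical copies elsewhere in the human genome, and how the authors assigned reads from such copies is not given in the sources used here, so its values are uncertain to that degree.

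KMT2D, the paralogue of KMT2C and the main gene of Kabuki syndrome, ran the other way in number, with 11 peaks in NC and 15 in MA. Only 11 of 9085 genes with an MA peak had 15 or more, KMT2D included. Of the 1049 like-length genes, 2.10% had 10 or more MA peaks. With peaks less than 200 bp apart joined, KMT2D had 9 regions in NC and 8 in MA, so the order of the numbers was not kept. The covered length was nearly the same, 7.76 kb in NC and 7.71 kb in MA, which was 37.5% and 37.2% of the recovered 20.7 kb transcript. Its longest NC peak, 1399 bp at chr12:49037532-49038930 on the minus strand (7.25-fold), corresponded to 2 MA peaks of 850 and 450 bp. Its longest MA peak was 1001 bp, at chr12:49031233-49032233 (3.06-fold). The highest fold enrichments were 8.75 in NC (chr12:49032432-49032882) and 5.40 in MA (chr12:49037582-49038431). Peaks in the NC list only were chr12:49044201-49044820 (2.58-fold) and chr12:49040993-49041243 (2.00-fold), and chr12:49040444-49040743 (2.31-fold) was in the MA list only. These 3 lay below the median fold enrichment of their lists, which was 3.57 in NC and 3.07 in MA.

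SETD1A and SETD1B, the catalytic subunits of the promoter H3K4 trimethylation complexes, both had a shorter covered length in the MA list. SETD1A had 6 peaks over 2.80 kb in NC and 5 over 2.15 kb in MA. SETD1B had 8 peaks over 3.84 kb in NC and 7 over 2.79 kb in MA. As given above, the lower peak numbers in MA were not kept with equal numbers of peaks in both lists. In SETD1A the strongest and longest peak was in the same place in both lists, 1399 bp at chr16:30964228-30966053 in NC (6.5-fold) and 1049 bp at chr16:30964278-30965753 in MA (2.91-fold). The SETD1A peaks in the NC list only were a 150 bp 5' UTR peak at chr16:30957267-30957416 (3.20-fold) and a 251 bp peak at chr16:30966302-30967049 (1.96-fold). SETD1A had no 3' UTR peak in either list, and its 5 MA peaks had a median fold percentile of 25.1, the lowest of the 9 genes in that list.

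SETD1B differed from its paralogue in the rank of its peaks. Its MA peaks had a median fold percentile of 90.9, the highest of the 9 genes, and held the highest member value in that list, 11.3-fold over 299 bp at chr12:121823566-121825314. In NC its highest value was 9.40-fold, at chr12:121831463-121831711 in the 3' UTR, where the MA peak had 3.00. The longest NC peak, 1493 bp at chr12:121808274-121814318 (6.67-fold), corresponded to 2 MA peaks of 598 bp each. SETD1B had 2 peaks in the NC list only, chr12:121814765-121817066 at 2.80-fold and chr12:121830667-121830816 in the 3' UTR at 2.44-fold. The former had an FDR of 0.0708, 1 of only 2 member peaks above 0.05. The SETD1B input level was also lower in MA, at 4.20 FPKM against 6.74 in NC, and the part of input depth in the shorter coverage was not tested.

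SETD2, the main human H3 lysine 36 trimethylase, is a tumour suppressor in kidney cancer, and its mRNA was the most densely covered of the 8 with a usable length. It had 9 peaks in NC over 4.58 kb, 52.7% of the recovered 8.70 kb, and 8 in MA over 5.73 kb, 65.9%. The highest NC fold enrichment was 11.2 over 597 bp at chr3:47083775-47084371, labelled Exon. The MA peak there, chr3:47083725-47086283, covered 747 bp at 4.44-fold and carried the label stop codon, the only such label among the member peaks of both lists, although a peak labelled Exon lies further 3' in the gene in each list. The longest peaks were 1095 bp in NC (chr3:47120272-47121366, 5.00-fold) and 1244 bp in MA (chr3:47122908-47124151, 5.11-fold). In MA the highest fold enrichment, 6.40, was in the 3' UTR at chr3:47016829-47017660. One peak was found only in MA, chr3:47121665-47121963 at 2.54-fold, between stretches listed in both. The 5' UTR peak of SETD2 in NC, chr3:47124350-47126648, had an FDR of 0.0692, and the MA peak there had 7.94e-06.

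In the paralogues CREBBP and EP300, the longest peak of the gene lay within 1 exon at the 3' end, under the label 3' UTR. In CREBBP this peak was 1944 bp in NC, chr16:3727544-3729487, at 5.25-fold, and 2043 bp in MA, chr16:3727544-3729586, at 10.0-fold. In EP300 it was 2145 bp in NC, chr22:41177035-41179179, at 4.50-fold, and 2245 bp in MA, chr22:41176935-41179179, at 5.65-fold. These 4 peaks were at percentiles 99.3 to 99.6 of length within their lists, and they had the highest fold enrichment of their gene in both lists. The paralogues thus shared the place of the longest peak relative to the transcript end, on opposite genome strands. The label is given once per peak, and how much of these long peaks lies past the stop codon was not tested. CREBBP had 5 peaks in NC and 6 in MA, of which chr16:3727146-3727395 (3' UTR, 3.57-fold) was in MA only. EP300 had 3 and 4 peaks, of which chr22:41149762-41150111 (Exon, 2.42-fold, FDR 0.0162) was in MA only. No peak of either gene was found in NC only.

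**Figure D2:**
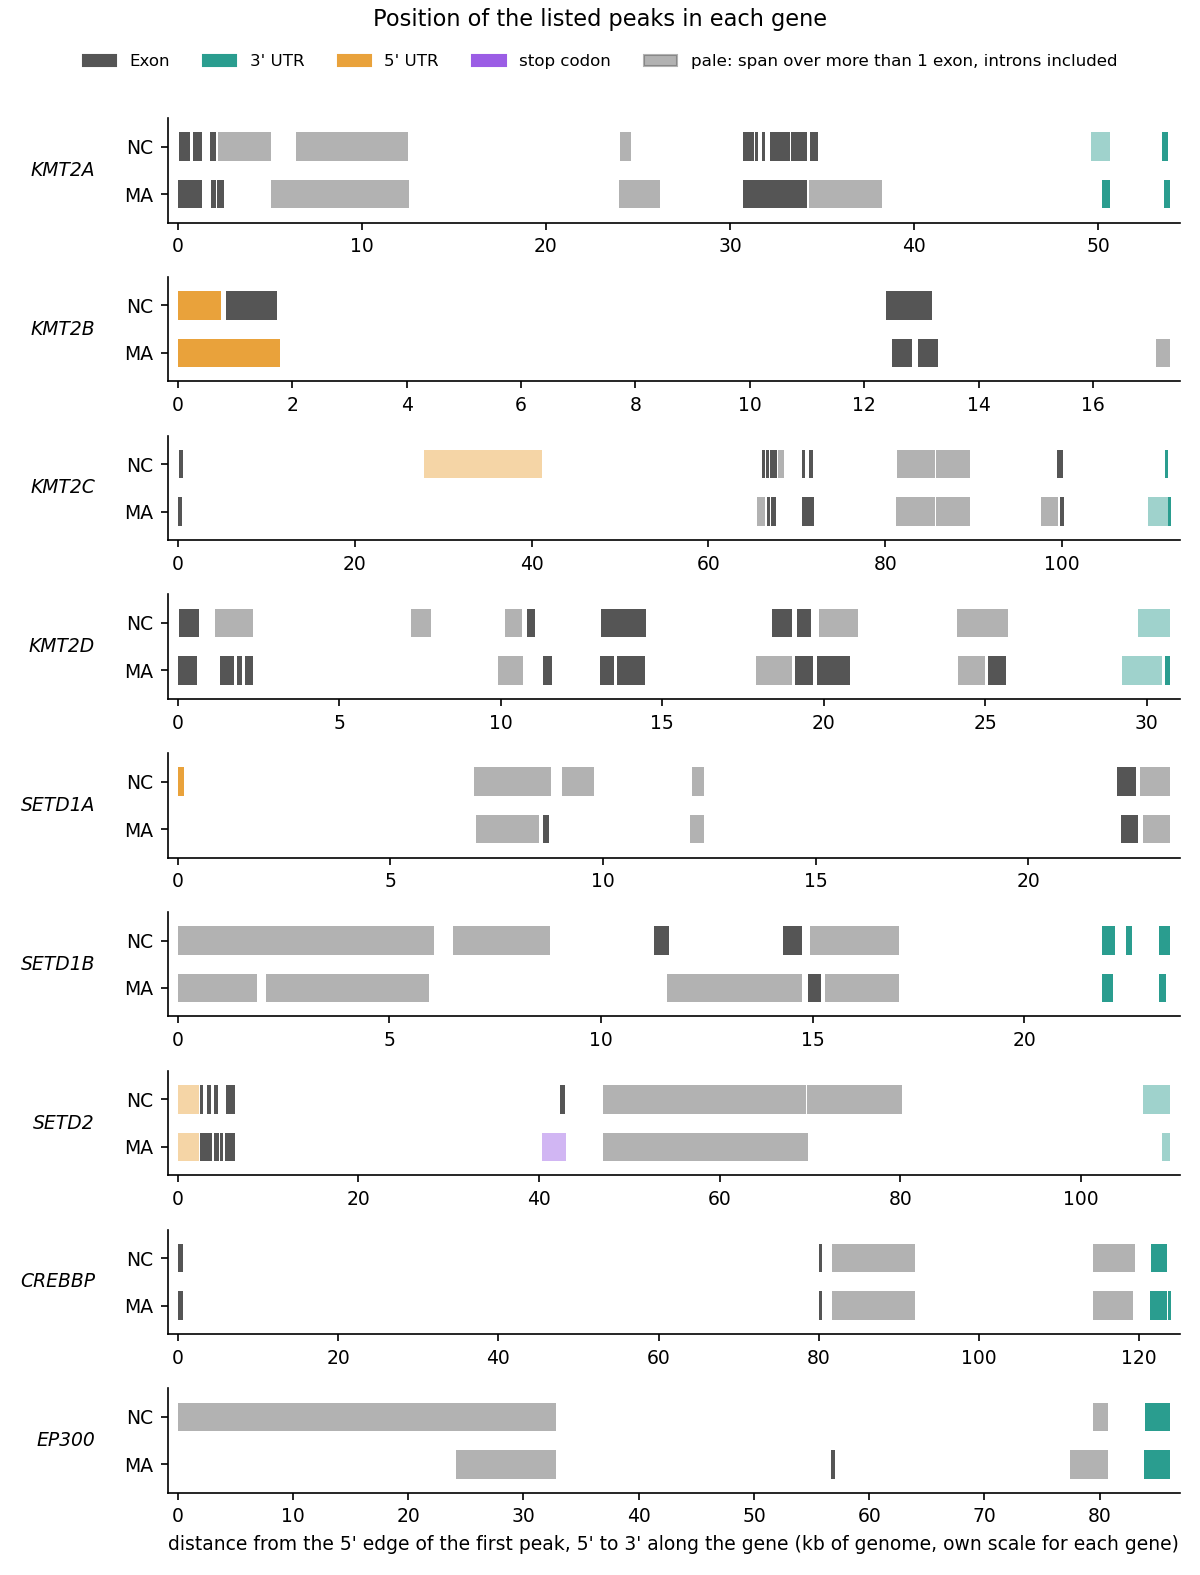
Position of every listed peak along each gene, as the distance in kb of genome from the 5' edge of the first peak, with NC in the upper and MA in the lower row and a separate scale for each gene. Colour gives the authors' feature label, and pale bars span more than 1 exon with the introns between. In KMT2A the stretch cut into 5 peaks in NC is 1 bar of 3501 bp in MA. In CREBBP and EP300 the longest bar that is not pale, in the 3' UTR colour, lies at the 3' end in both rows.

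By annotated feature, the 9 genes differed from the lists as a whole in their share of peaks labelled Exon. In NC, 57 of 71 member peaks (80.3%, 95% exact binomial interval 69.1 to 88.8) were labelled Exon, against 33.8% of all NC peaks and 41.7% of the peaks of like-length genes. In MA the numbers were 54 of 69 (78.3%, interval 66.7 to 87.3), 34.0% and 41.4%. The label 3' UTR was carried by 10 member peaks in NC (14.1%) and 12 in MA (17.4%). Over the whole lists it was carried by 42.1% of NC peaks and 42.8% of MA peaks. In each of the 9 genes the majority of peaks was labelled Exon, in both lists. Among like-length genes with 3 or more peaks this was so for 235 of 680 in NC (34.6%) and 210 of 606 in MA (34.7%). The like-length genes were matched by transcript length and not by coding length. The part of coding length in these differences was not tested. No member peak was labelled start codon, a label that 6.06% of all NC peaks and 4.79% of all MA peaks carried. Peaks of 1 gene share a transcript and are not independent, so the intervals cover counting error only and are too narrow.

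Member peaks were also longer than the typical peak. The median exonic length was 450 bp in each list, against 299 bp over all NC peaks and 300.0 bp over all MA peaks. Of the 9 genes' peaks, 10 in NC and 14 in MA reached 1000 bp, where 5.26% of all NC peaks and 6.80% of all MA peaks did. Peaks within 1 exon made up 42 of 71 in NC (59.2%) and 41 of 69 in MA (59.4%), close to the 59.8% and 55.9% of the whole lists.

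Fold enrichments, the authors' own values, were ranked within each list. In NC, 50 of 71 member peaks (70.4%, interval 58.4 to 80.7) lay above the list's median, with a median member value of 4.62 at percentile 67.3. In MA, 42 of 69 (60.9%, interval 48.4 to 72.4) lay above it, with a median member value of 3.45 at percentile 58.8. The MA interval includes an even split. Above the 90th percentile of their list lay 11 NC and 13 MA member peaks.

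**Figure D3:**
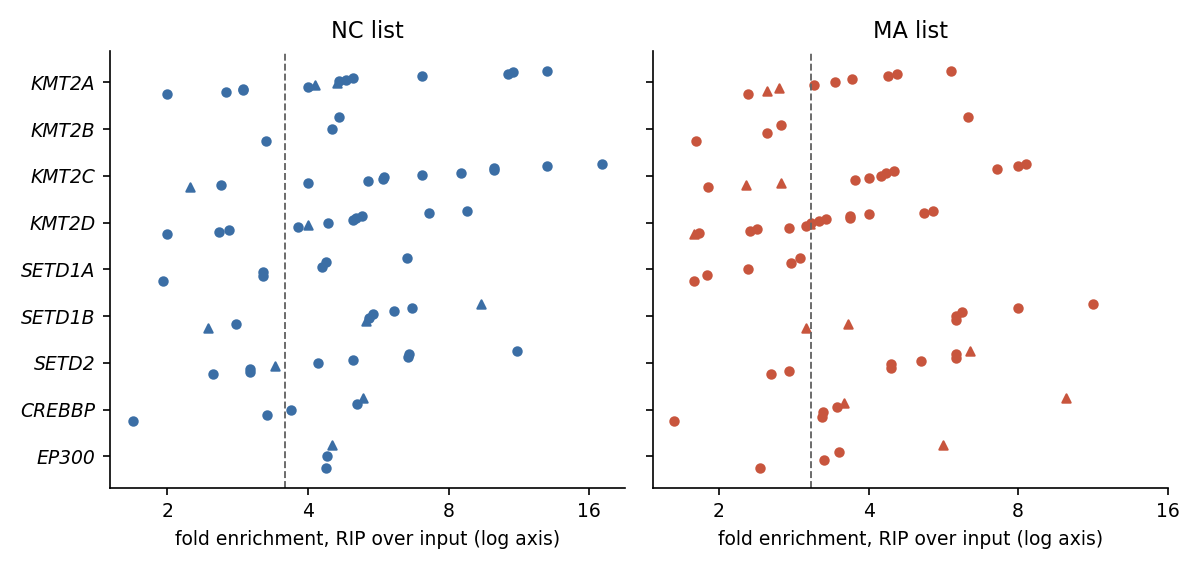
Fold enrichment of RIP over input (log axis) of every member peak by gene, with the NC list on the left and the MA list on the right. Triangles are peaks labelled 3' UTR, circles all other labels, and the dashed line is the median of all peaks in that list (3.57 in NC, 3.07 in MA). KMT2C reaches 17.0 in NC, SETD1B reaches 11.3 in MA, and all 5 SETD1A peaks in MA lie below the line.

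Most member peaks were found in both conditions. Of the 71 NC regions, 63 (88.7%, interval 79.0 to 95) overlapped an MA region of the same strand by 1 bp or more, against 73.8% of all NC regions. Of the 69 MA regions, 63 (91.3%, interval 82.0 to 96.7) overlapped an NC region, against 79.6% of all MA regions. Of the peaks of like-length genes, 77.8% in NC and 84.1% in MA had an overlapping peak in the other list. The MA value lies inside the members' interval. These intervals too are too narrow, since regions of 1 gene are not independent, and they test no difference. The shares were 50.7% of NC and 52.2% of MA member regions when at least 50% of both regions had to overlap, against 46.3% and 51.2% over all regions. With only peaks inside 1 exon, a setting added after seeing the data, they were 76.2% in NC and 63.4% in MA, against 59.5% and 69.5%, so that in MA the members then lay below the whole list. Joined over both lists, the member peaks formed 66 regions, of which 52 had peaks in both lists, 8 in NC only and 6 in MA only. In 16 of the 52, the lists gave unequal numbers of peaks for the same stretch.

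The input levels of the 9 genes went in both directions, and 1 of 9 passed 2-fold. Differences are log2((MA FPKM + 1)/(NC FPKM + 1)), which understates the change of low genes. SETD2 was higher in MA by a log2 difference of 1.00, just at the 2-fold limit, and no gene was lower by 2-fold. Over all 10564 genes, 10.3% were higher by 2-fold or more in MA and 2.98% lower. These were 1087 and 315 genes, and 739 and 438 after the median of all genes was centred on 0. The median difference was 0.03 over the 9 genes, which ran from -0.57 to 1.00 with 5 above 0 and 4 below, and 0.11 over all genes. In bulk RNA, fewer cells of a kind and less RNA per cell cannot be told apart.

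SETD2 was at 7.63 FPKM in NC and 16.3 in MA. Without the added 1 FPKM, the log2 ratio was 1.09, with a 95% interval of counting error from 1.02 to 1.16. The 2-fold call was lost with 5 FPKM added (0.75) and after centring the median of all genes on 0 (0.88). KMT2C was at 3.86 FPKM in NC and 7.76 in MA, a log2 difference of 0.85 (ratio without the added value 1.01, interval 0.94 to 1.08), and it passed 2-fold without the added value and with values rescaled to TPM (1.01). KMT2A was at 5.52 FPKM in NC and 8.38 in MA, a log2 difference of 0.52 (0.60, interval 0.49 to 0.72). Its recovered reads, like its recovered length, can only be a fraction of the true number, so the KMT2A interval is too wide. These 3 genes were higher in MA under every scaling tried. Among all tested genes, the differences of KMT2A, KMT2C and SETD2 were at percentiles 71.4, 84.6 and 89.7.

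The paralogues of KMT2A and KMT2C were lower in MA. KMT2B was at 10.7 FPKM in NC and 8.09 in MA, a log2 difference of -0.36 (ratio without the added value -0.40, interval -0.47 to -0.33). KMT2D was at 12.2 FPKM in NC and 8.71 in MA, a log2 difference of -0.44 (-0.48, interval -0.53 to -0.44). In each of these paralogue pairs, 1 gene was therefore higher and its partner lower in MA. SETD1B had the lowest difference of the 9, -0.57, with 6.74 FPKM in NC and 4.20 in MA (-0.68, interval -0.78 to -0.59). These 3 genes were lower in MA under every scaling tried. The differences of KMT2B, KMT2D and SETD1B were at percentiles 21.0, 17.1 and 11.0 of all tested genes.

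SETD1A, CREBBP and EP300 differed little. SETD1A was at 11.5 FPKM in NC and 11.8 in MA, a log2 difference of 0.03 whose counting interval, -0.04 to 0.10, includes 0. CREBBP was at 22.4 FPKM in NC and 23.9 in MA, a log2 difference of 0.09 (counting interval of the ratio 0.06 to 0.13). EP300 was at 38.1 and 35.8 FPKM, a log2 difference of -0.09 (counting interval of the ratio -0.12 to -0.05). Centring the median of all genes on 0 turned SETD1A to -0.091 and CREBBP to -0.036, so no direction is given for either. Counting intervals leave out the spread between cultures, which these libraries do not show.

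**Figure D4:**
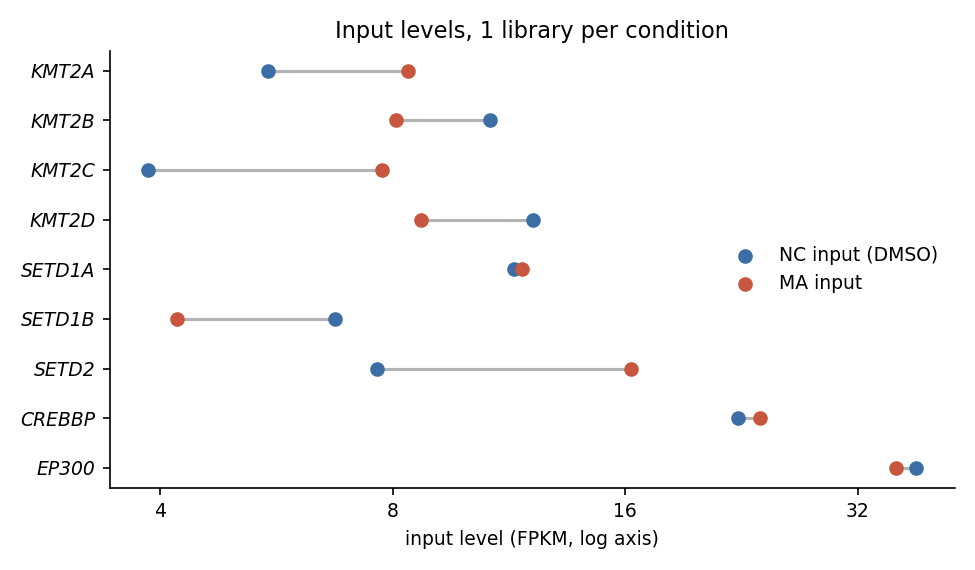
Input level of each gene in FPKM (log axis) in the NC library (blue) and the MA library (red), joined by a grey line, with 1 library per condition and no error bars. KMT2A, KMT2C and SETD2 lie higher in MA, KMT2B, KMT2D and SETD1B lie lower, and SETD1A, CREBBP and EP300 almost coincide.

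The order of the levels was not the order of the peak numbers. EP300 had the highest level in both inputs and, with KMT2B, the fewest peaks. KMT2C had the lowest level in NC, 3.86 FPKM, and 12 peaks there. SETD2 had the largest positive input difference, with 9 peaks in NC and 8 in MA and 8 in each with equal numbers of peaks kept. KMT2D had a lower input level in MA and 4 peaks more. With peaks less than 200 bp apart joined, it had 9 regions in NC and 8 in MA.

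The 3 genes higher in MA under every scaling tried were all among the 5 that span more than 80 kb of genome. KMT2A, KMT2C and SETD2 span 90.3, 301 and 148 kb of genome in RefSeq (assembly GRCh38.p14, used for lengths only). CREBBP and EP300 span 156 and 87.5 kb, yet their differences were only 0.09 and -0.09. KMT2B, SETD1A, KMT2D and SETD1B span from 20.9 to 42.5 kb, and their differences ran from -0.57 to 0.03. Over the table as a whole, the median difference was higher for long genes than for short ones. Over the 2364 tested genes that span more than 80 kb the median difference was 0.37, with 14.9% higher by 2-fold and 2.28% lower. Over the 6423 genes of at most 45 kb the median was -0.01, with 7.54% higher and 3.36% lower. Both limits were placed in the gap between the members after their values had been seen, and the part of gene span in the members' differences was not tested.

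**Figure D5:**
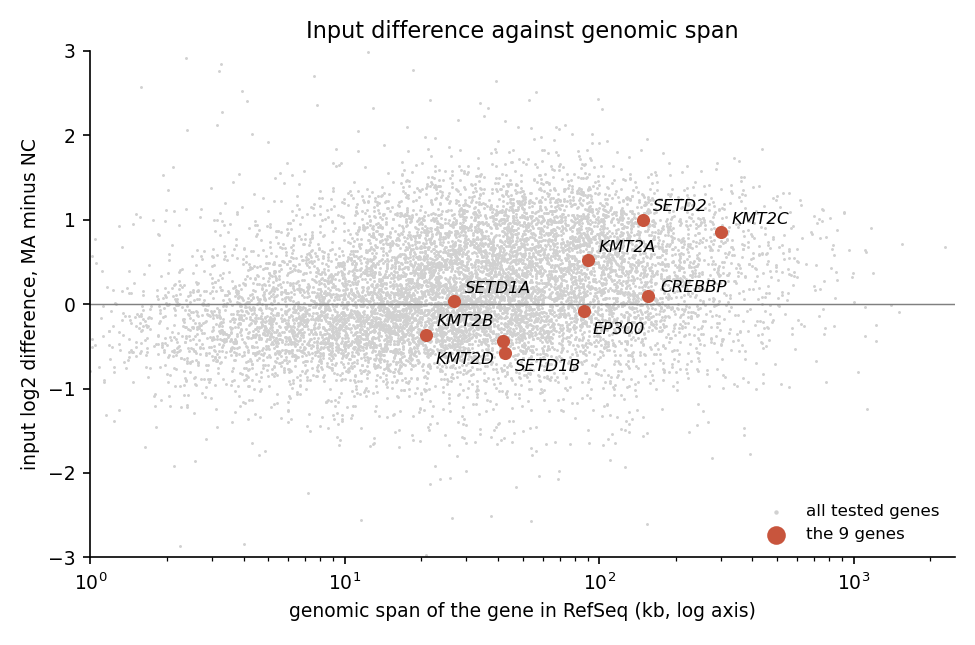
Input log2 difference, MA minus NC, against the genomic span of the gene in kb (log axis), with 10374 tested genes as grey points and the 9 genes in red, 43 further genes lying outside the axes. KMT2B, KMT2D and SETD1B lie below 0 at spans of at most 45 kb, while KMT2A, KMT2C and SETD2 lie above 0 at spans over 80 kb. CREBBP (0.09) and EP300 (-0.09), also over 80 kb, lie near 0, as does the shorter SETD1A (0.03).

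The other genes of these pathways were read from 8 related lists. Beside each count below stand the shares over all tested genes, 10.3% higher by 2-fold or more in MA and 2.98% lower. Of the 15 tested subunits of KMT2 and SET1 complexes, 1 was higher by 2-fold in MA and none lower, with a median of -0.11. That gene was PSIP1, which tethers KMT2A to chromatin through menin, at 8.91 FPKM in NC and 25.5 in MA (log2 difference 1.42). BOD1L1, a partner of SETD1A, was at 4.33 and 8.96 FPKM (0.90) and had 10 peaks in NC and 4 in MA. KDM6A, the H3 lysine 27 demethylase of the KMT2C and KMT2D complexes, was at 4.93 and 8.53 FPKM (0.68). NCOA6, a further subunit of those complexes, had 6 peaks in each list. The core subunits WDR5, RBBP5, ASH2L and DPY30, named after their values were seen, had 1 to 3 peaks each. The share at 2-fold in this list is near the background of all genes.

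Of the 5 H3K4 demethylases and the 5 H3 lysine 36 demethylases, none passed 2-fold in either direction, with medians of 0.12 and 0.11. KDM5A, which removes H3K4 trimethylation, had the largest difference of the former (0.61) and 7 peaks in NC against 4 in MA. A further list held 13 tested methyltransferases of H3 lysine 36 and other methyltransferases of H3K4 or H4. Of these, NSD3 was higher by 2-fold (6.14 FPKM in NC, 14 in MA, 1.07) and none was lower, with a median of 0.28. ASH1L, a long H3 lysine 36 methyltransferase, was at 0.72 and had 12 peaks in NC and 9 in MA, numbers like those of KMT2C. NSD2 had 8 and 7 peaks.

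Of the 10 genes of H3 lysine 9 and lysine 27 methylation, only SUZ12, a core subunit of Polycomb complex PRC2, was higher by 2-fold (8.10 FPKM in NC, 20.1 in MA, 1.21), none was lower and the median was 0.10. EZH2, the catalytic subunit of PRC2, was at 0.90. Of the 10 acetyltransferases other than CREBBP and EP300, 2 were higher by 2-fold, the nuclear receptor coactivators NCOA3 (1.21) and NCOA1 (1.03), with a list median of 0.54 and none lower. CREBBP and EP300 bind these coactivators and were themselves at 0.09 and -0.09. Among the 12 deacetylases, HDAC9 was higher by 2-fold (1.08) and HDAC1 lower, at 56.1 FPKM in NC and 27 in MA (-1.03), the only gene of the 8 lists lower by 2-fold, and the median was -0.08. Of the 10 bromodomain and super elongation readers, AFF4, a fusion partner of KMT2A in leukaemia and scaffold of the elongation complex, was higher by 2-fold (1.13), none was lower and the median was 0.23. DOT1L, the H3 lysine 79 methyltransferase, had 8 peaks in NC and 6 in MA. Across all 8 lists, no gene had more peaks than KMT2A in NC or than KMT2D in MA.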

How the data were processed

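The authors sequenced input and m6A RIP libraries of OMM 2.3 cells. Per the submitters' processing notes, the tools were ChIPseeker, deepTools, HISAT, HISAT2 and Trimmomatic, and the genome build was GRCh38.p13. The sources used here name no peak caller, read counter, strand setting or annotation release. Gene levels were the authors' deposited FPKM. Each peak's fold enrichment, p-value, FDR, gene and feature were the authors' deposited values, with 1 list per condition. Rows that repeated a peak position (132 in NC, 99 in MA) were counted as 1 peak in the list totals. In counts per gene, a position listed under different genes was counted once for each gene. To give 1-based positions, 1 was added to each start.

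The computed steps used Python 3.11.15, pandas 2.3.3, NumPy 2.4.6, SciPy 1.17.1 and matplotlib 3.10.9. Genes were compared if either input reached 1 FPKM, with 1 FPKM added, and counted at 2-fold. Whole reads were recovered from the FPKM steps: of 13055 genes above 0 in both inputs, 99.1% resolved. Recovered reads and lengths are the smallest that fit, so true values can be multiples of them. At the library total chosen, 162 genes had a recovered length identical to their RefSeq span, against 34 for the next candidate. On simulated data, the recovery was checked against a limit that allowed a wrong length for some genes. That check therefore does not vouch for each recovered length. Intervals are exact 95% binomial (Clopper-Pearson) intervals. They cover counting error only, and reads copied by PCR are not independent molecules. Overlap was taken over the whole span, introns included.

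The members and the related lists were chosen with earlier results of these data known. All 9 members are named. From each related list, the 3 tested genes with the largest absolute difference and the 2 with the most peaks could be named. Of member peaks, the highest fold enrichment, the longest and every unpartnered peak are named; their counterparts in the other list were added after the values were seen. Other genes overlap 8 of the 9 members in RefSeq, but none of their peaks fell within the member peaks. Other pseudocounts, filters, scalings, peak limits and overlap rules were tried. No sequence is printed, since no genome of the files' build was used here.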

Additional observations from a re-analysis of the deposited data

How the results depend on the processing

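The count of members at 2-fold or more, 1 of 9 in the report, was 0 with 5 FPKM added, 0 after centring the median difference of all genes on 0, and 2 with values rescaled to TPM (SETD2 1.13, KMT2C 1.01). It was 1 with 0.1 FPKM added and with either other filter. Centring on 0 also turned SETD1A to -0.091 and CREBBP to -0.036. For all tested genes, 1087 higher and 315 lower became 739 and 438 after centring, 1801 and 450 with 0.1 FPKM added, 273 and 154 with 5 added, and 1793 and 315 with TPM. The share of member regions found in the other list was 50.7% for NC and 52.2% for MA when 50% of both regions had to overlap, and 76.2% and 63.4% when only peaks within 1 exon were kept, a setting added after seeing the data. The peak totals of 71 in NC and 69 in MA were 59 and 69 with equal numbers of peaks in both lists, 59 and 61 at an FDR of 0.001 or less, and 69 and 62 at a fold enrichment of 2 or more, so the order of the totals was not kept in the first 2 settings. The shares of Exon peaks and of peaks above the median fold enrichment stayed within their intervals. No paired analysis was possible because each group has 1 library, and for the same reason no replicate could be left out. The overlap between exon blocks was not run, since the lists give spans and exonic lengths but no exon blocks. The depth of the RIP libraries is unknown.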

Other observations

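The way peaks were divided differed between the lists in the same stretches of exon. In NC, 25 of 71 member peaks had the same p-value as another peak of their gene, and in MA 28 of 69, against 38.9% and 42.4% over all peaks of the lists. KMT2A had 7 distinct p-values for its 14 NC peaks and 8 for its 9 MA peaks, and KMT2D had 8 for 11 and 10 for 15. With peaks less than 200 bp apart joined, KMT2A had 8 regions in NC and 7 in MA, and KMT2D had 9 and 8. Joined in this way, no member had more regions in MA than in NC except KMT2B (2 and 3) and EP300 (3 and 4). CREBBP had 5 regions in each list.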
